A study of Rattus norvegicus with 6 samples.

Results

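Interferon-stimulated genes were examined in the jejunum of heat- and shake-stressed rats and of control rats. The set holds Irf1, Irf7, Stat2, Isg15, Mx1, Mx2, Ifit1, Ifit3 and Oas1a, and its members are the probes whose RefSeq accession belongs to one of these 9 genes. Each gene had 1 probe, so the set is 9 of the 41012 non-control probes on the array. All 9 probes were bright enough to be tested, and 8 of them were well above background on every one of the 6 arrays, the exception being Ifit1.

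The arrays were Agilent rat arrays in 1 colour, 3 for each of the 2 groups, and the animals were male Sprague-Dawley rats 6 weeks old that weighed 200 ± 20 g and were housed at 25°C. The control group received no stress. The S3d group was stressed for 3 days, in daily sessions of 2 h at 35°C on a shaker running at 0.1 × g. Each sample was RNA pooled from 3 rats. The sample labels give 10 rats per group, while the study's methods give fewer than the 9 that 3 separate pools of 3 would need, and nothing says which rats entered which pool. The 3 pools of a group may therefore share rats, and each SD and p-value measures only the spread between these pools. The tissue was whole jejunum, in which fewer cells of a type and less RNA per cell cannot be told apart.

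The group labels of the deposited data did not agree between its sources. Each of the 6 columns of the deposited normalized table followed an array file of the opposite group that carries its replicate number, with a Spearman's rho across probes that rounds to 1.00000, against 0.94153 to 0.95192 with the file of its own label. No sample was reassigned. All values below follow the labels of the scanner files, a fold change is S3d minus control by those labels, and the normalized table by its own labels gives the opposite sign for Irf7, Isg15, Oas1a and Ifit3 and for most other genes named. The files used here do not settle which set of labels is right, and so not which direction the stress had on these genes. The arrays of each group lay on a slide of their own, with 450 days between the scans, so slide, scan and group cannot be told apart. The processed signal at the 75th percentile of an array was 384 to 397 on the control arrays and 1339 to 1444 on the S3d arrays, and no spot was saturated. Jejunal markers were present: all 7 measured villus enterocyte markers, among them Fabp1, Fabp2 and Vil1, were well above background on every array.

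Interferons are secreted proteins that warn cells of virus infection. The type I and type III interferons act through receptors and the kinases JAK1 and TYK2 on a complex that holds STAT2 and IRF9 and binds the interferon-stimulated response element in the promoters of their target genes. Interferon gamma acts mainly through another promoter element, the gamma-activated site. In the intestine, interferon-stimulated genes are known as part of the mucosal defence against enteric viruses, and some of them are expressed at a resting level without infection.

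Promoter sequences of 6 of the 9 genes were found in RefSeq for the rat build GRCr8, covering 250 bases before the start of transcription to 50 bases after it. The entries were those of Irf7, Irf1, Stat2, Ifit3, Oas1a and Mx1. The response element was searched on both strands as GAAA, any 2 bases and GAAA again, which reads as a pair of TTTC on the other strand, and the gamma-activated site as TTC, any 3 bases and GAA, which is its own reverse complement. The first was in 3.92% of 33469 promoters and the second in 8.87%. The promoters below are those of members with a match, 100 bases each on the strand of the gene, with the matches in capitals. The response element was in the promoters of Irf7, Ifit3 and Oas1a, and the 2 matches in Oas1a overlap. In Irf1 the capitals mark the gamma-activated site. Oas1a also had a gamma-activated site further upstream, at bases -199 to -191, outside the printed stretch. Neither motif matched in Stat2 and Mx1.
Irf7, chr1:205800024-205800123, minus strand: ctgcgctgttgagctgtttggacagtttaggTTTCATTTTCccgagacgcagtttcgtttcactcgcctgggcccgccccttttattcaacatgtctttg
Ifit3, chr1:241527226-241527325, plus strand: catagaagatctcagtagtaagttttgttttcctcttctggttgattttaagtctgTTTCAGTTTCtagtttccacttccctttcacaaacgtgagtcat
Oas1a, chr12:41330366-41330465, plus strand: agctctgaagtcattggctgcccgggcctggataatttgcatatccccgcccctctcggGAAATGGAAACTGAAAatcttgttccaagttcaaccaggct
Irf1, chr10:38417785-38417884, plus strand: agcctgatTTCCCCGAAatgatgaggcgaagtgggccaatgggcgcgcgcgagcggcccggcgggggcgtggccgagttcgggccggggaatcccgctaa

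The 9 genes separated into those that were several-fold lower on the arrays labelled S3d and those that hardly differed. Irf7, Isg15, Oas1a and Ifit3 were 2.8- to 5.51-fold lower, and all 4 passed the test. Irf1, Stat2, Mx1 and Mx2 had log2 fold changes between -0.04 and 0.18 and did not pass, and their groups overlapped. Ifit1 had the most negative mean difference but varied too much between arrays to pass. The count of 4 of 9 called lower stands beside a background of 34.4% of all 31422 tested probes called lower, and 74.0% called in either direction, so the number of calls alone is close to what the whole array gives. The median log2 fold change of the 9 was -1.49, against 0.09 over all tested probes. Of all tested probes, 2.53% were called lower by at least 4-fold, and Isg15 and Ifit3 were among them. Called lower by at least 1.5-fold were 23.2% of tested probes and the same 4 members. The groups did not overlap for 5 of the 9, all lower in S3d, where 78.9% of all tested probes had no overlap and 36.4% none with S3d lower. A call here is an adjusted p under 0.05 in limma, with Benjamini-Hochberg adjustment over all tested probes.

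**Figure D1:**
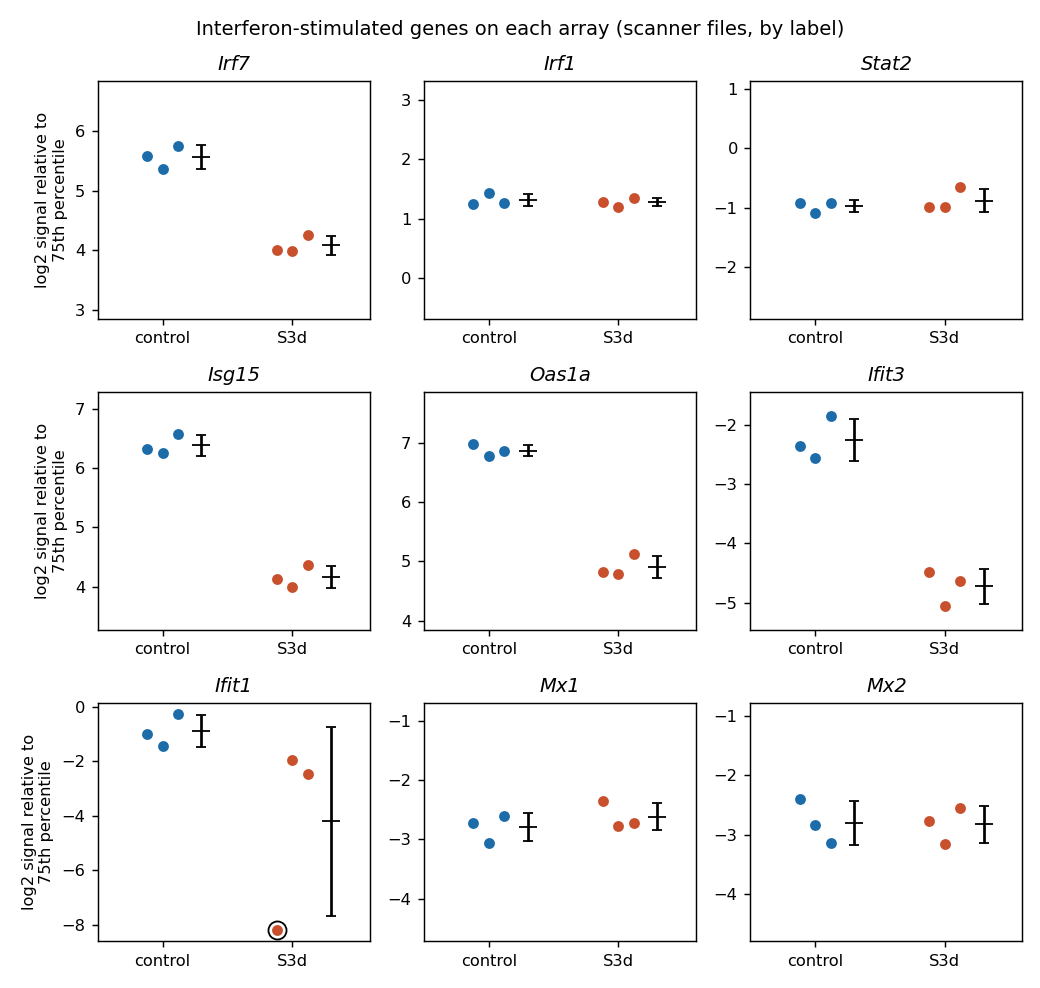
Log2 signal of each interferon-stimulated gene relative to the 75th percentile of its array, with a point for each of the 3 control and 3 S3d arrays by scanner label, and the mean and SD (n = 3) beside them. The groups are apart for Irf7, Isg15, Oas1a, Ifit3 and Ifit1 and overlap for Irf1, Stat2, Mx1 and Mx2, and the circled point is the S3d array on which Ifit1 was not well above background.

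The transcription factors of the set did not behave alike. Irf7, the regulator that amplifies type I interferon production, read 5.59, 5.36 and 5.76 on the control arrays and 4.0, 3.98 and 4.26 on the S3d arrays, as log2 signal relative to the 75th percentile of the array. Every control array was above every S3d array. The means were 5.57 ± 0.20 and 4.08 ± 0.16 (SD, n = 3), a log2 fold change of -1.49 with a standard error of 0.13 (95% confidence interval -1.81 to -1.16, limma adjusted p = 0.00015). This is a 2.8-fold lower signal.

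Irf1, a regulator induced mainly by interferon gamma, read 1.24, 1.43 and 1.26 on the control arrays and 1.28, 1.20 and 1.34 on the S3d arrays. The S3d values lay among the control values. Its log2 fold change was -0.04 (95% confidence interval -0.24 to 0.16, limma adjusted p = 0.70). Stat2, the partner of IRF9 in type I signalling, read -0.91, -1.08 and -0.92 against -0.99, -0.99 and -0.65. Its groups overlapped as well, with a log2 fold change of 0.09 (95% confidence interval -0.19 to 0.38, limma adjusted p = 0.49). The intervals of Irf1 and Stat2 do not reach a 1.5-fold difference in either direction.

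Isg15, a ubiquitin-like protein that is conjugated to other proteins after interferon exposure, read 6.32, 6.25 and 6.58 on the control arrays and 4.14, 3.99 and 4.37 on the S3d arrays. The lowest control array was well above the highest S3d array. The means were 6.38 ± 0.17 and 4.17 ± 0.19 (SD, n = 3), and the log2 fold change was -2.22 with a standard error of 0.13 (95% confidence interval -2.54 to -1.89, limma adjusted p = 3.7e-05). This is a 4.65-fold lower signal, and 1.75% of tested probes had a fold change as low or lower.

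Oas1a, an enzyme that senses double-stranded RNA and makes the signal that activates RNase L, read 6.97, 6.77 and 6.86 on the control arrays and 4.82, 4.79 and 5.12 on the S3d arrays. The 2 groups were again apart. The means were 6.87 ± 0.10 and 4.91 ± 0.19 (SD, n = 3), and the log2 fold change was -1.96 with a standard error of 0.11 (95% confidence interval -2.24 to -1.68, limma adjusted p = 3.3e-05), a 3.89-fold lower signal.

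Ifit3 and Ifit1 encode proteins of the IFIT family, of which IFIT1 binds viral RNA ends. Ifit3 read -2.36, -2.56 and -1.86 on the control arrays and -4.48, -5.05 and -4.64 on the S3d arrays. No S3d array came near the control range. The means were -2.26 ± 0.36 and -4.72 ± 0.30 (SD, n = 3), and the log2 fold change was -2.46 with a standard error of 0.23 (95% confidence interval -3.02 to -1.90, limma adjusted p = 0.00017), which is a 5.51-fold lower signal.

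Ifit1 read -0.99, -1.42 and -0.26 on the control arrays and -8.19, -1.95 and -2.46 on the S3d arrays. The groups did not overlap, but S3d array 1 stood far below the other two. On that array the spot read a median of 47 over a local background of 38, was not well above background and carried no outlier flag. The log2 fold change was -3.31 with a standard error of 1.7 (95% confidence interval -7.39 to 0.76, limma adjusted p = 0.12), and the gene did not pass. Without S3d array 1 it was -1.32 with a limma adjusted p of 0.025, so this array decides both the size of the value and the call.

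Mx1 and Mx2 encode the dynamin-like GTPases that block virus replication. Mx1 read -2.72, -3.06 and -2.61 on the control arrays and -2.36, -2.77 and -2.72 on the S3d arrays. Mx2 read -2.41, -2.84 and -3.15 against -2.78, -3.16 and -2.55. Neither gene separated the groups. The log2 fold change was 0.18 for Mx1 (95% confidence interval -0.22 to 0.58, limma adjusted p = 0.35). It was -0.03 for Mx2 (95% confidence interval -0.60 to 0.55, limma adjusted p = 0.92). For Mx2 the interval still holds a decrease of 1.5-fold, so a difference of that size was not detectable with these arrays.

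The fold change over the whole array depended on the signal of the probe, which touches the members unequally. When the tested probes were divided into 10 groups of equal size by mean signal, the median log2 fold change went from 1.29 in the dimmest to -0.49 in the brightest. In the brightest, 64.8% of probes were called lower. Irf7, Isg15 and Oas1a lay in this brightest group. Of its probes, 8.3% had a fold change as low as that of Irf7 or lower, 2.04% as low as that of Isg15 and 3.12% as low as that of Oas1a. Less the median of that group, the log2 fold changes were -1.0 for Irf7, -1.73 for Isg15 and -1.47 for Oas1a. Ifit3 lay in the third group from the dimmest, where the median was 0.33, and 0.955% of its probes were as low as Ifit3 or lower. The part of this signal dependence in the differences was not tested.

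**Figure D2:**
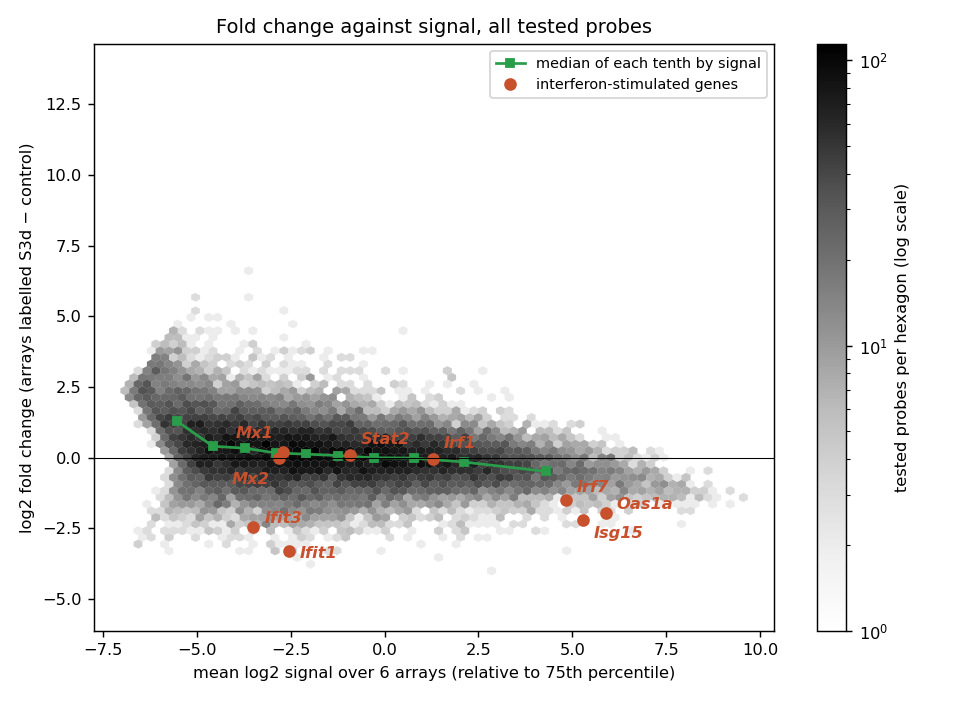
Log2 fold change (arrays labelled S3d minus control) against the mean log2 signal over the 6 arrays for the 31422 tested probes, shaded by number of probes on a log scale, with the median of each of the 10 groups by signal in green and the 9 interferon-stimulated genes in orange. The medians fall from 1.29 to -0.49 with signal, and Irf7, Isg15, Oas1a, Ifit3 and Ifit1 lie below the median of their group.

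Before scaling, the picture of the bright members was different. The processed signal of Isg15 was 30696, 30111 and 37915 on the control arrays and 23585, 22964 and 29807 on the S3d arrays. That of Irf7 was 18474, 16184 and 21516 against 21415, 22774 and 27672, so Irf7 tended to be brighter on the S3d arrays. The 75th percentile of the S3d arrays was 3.59 times that of the control arrays, and the signal of Irf7 was not higher by nearly this much. Irf1 by contrast read 906, 1064 and 950 against 3244, 3310 and 3657, close to the ratio. With no scaling between arrays, the log2 fold change over all tested probes had a median of 1.93, and 1.85% of them were called lower. The log2 fold changes were then 0.36 for Irf7 (limma adjusted p = 0.051), -0.37 for Isg15 (adjusted p = 0.042), -0.11 for Oas1a (adjusted p = 0.39) and -0.62 for Ifit3 (adjusted p = 0.033). Relative to the median of all tested probes they were -1.58, -2.30, -2.05 and -2.55 in that order. The lower signals are thus lower relative to the other probes of the same array, and not all are lower in absolute signal.

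Quantile normalization made the bright genes differ less, and all 4 were called, where 35.5% of all tested probes were called lower. The log2 fold changes were -1.04 for Irf7, -1.70 for Isg15, -1.36 for Oas1a and -2.83 for Ifit3. Under normexp background correction they were -0.79, -1.70, -1.23 and -2.26, the median over all tested probes was -0.66, and of the members only Ifit3 was called (limma adjusted p = 0.041). In that setting 4.07% of all tested probes were called lower. The deposited normalized table, by its own labels, gave 1.04 for Irf7 (limma adjusted p = 0.00083), 1.70 for Isg15 (adjusted p = 0.00011), 1.35 for Oas1a (adjusted p = 0.0002) and 2.84 for Ifit3 (adjusted p = 0.00017), all 4 higher in S3d, where 35.2% of tested probes were called higher. With each array centred on its median, Irf1 joined the 4 as lower at -0.24 (limma adjusted p = 0.036), where 42.2% of all tested probes were called lower. In the table Irf1, Stat2, Mx1 and Mx2 did not pass.

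**Figure D3:**
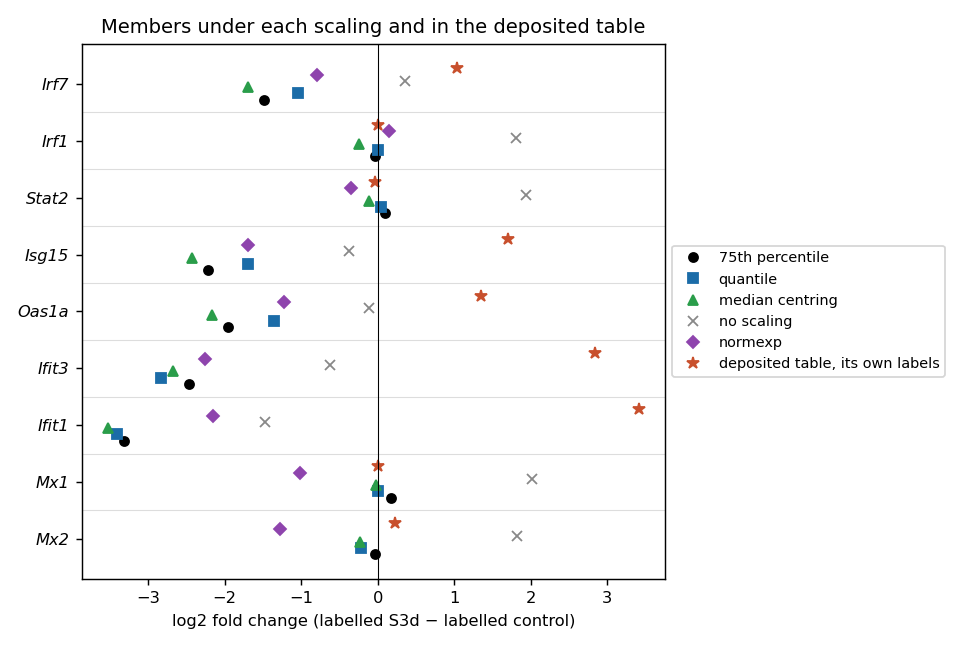
Log2 fold change (labelled S3d minus labelled control) of the 9 genes under each scaling of the scanner files and in the deposited normalized table by its own labels, 1 symbol per setting. Irf7, Isg15, Oas1a, Ifit3 and Ifit1 are negative in every scaled setting of the scanner files and positive in the table, Irf7 is positive without scaling, and Irf1, Stat2, Mx1 and Mx2 are moved above 1.8 by leaving out the scaling.

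The other genes of the interferon pathway were followed from a list of 96, of which 67 had a probe and 64 were tested. Of these, 34 were called lower on the arrays labelled S3d, 13 higher, and 17 did not pass, with a median log2 fold change of -0.32. The background shares were 34.4% lower and 39.6% higher. Receptors, feedback inhibitors, sensors and both groups of targets held calls in both directions. The split depends on the scaling: with no scaling between arrays 1 of the 64 was lower and 59 were higher, and under normexp 4 passed, all lower. Quantile normalization gave 33 lower and 16 higher. The deposited table, whose group labels are the other way round, gave 16 lower and 33 higher by its own labels.

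Few ligands were measured. Ifna4, an interferon alpha, was well above background on only 1 of 3 control arrays, so it has only a bound. It was at least 6.59-fold higher on the S3d arrays (limma adjusted p = 8.7e-05). Ifna4 entered the test only through the S3d arrays, so the filter favoured a higher value. Ifng, interferon gamma, did not pass at -0.20 (adjusted p = 0.16), but was called at -0.88 under quantile normalization (adjusted p = 0.002) and at -0.41 with each array centred on its median (adjusted p = 0.022). Ifna5, Ifnk and Ifnb1 were too dim to be tested, the first 2 on all 6 arrays and Ifnb1 on all but 2 S3d arrays.

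Of the 5 receptor chains tested, 3 were called higher, 1 lower and 1 did not pass. Of all tested probes, 39.6% were called higher and 34.4% lower. Ifnar1, a chain of the type I receptor, was higher by 0.59 on the log2 scale (limma adjusted p = 0.00041), and its second probe gave 0.46. Ifngr1, the ligand-binding chain of the interferon gamma receptor, was higher by 0.76 (adjusted p = 0.0012). Its partner Ifngr2 had a log2 fold change of -0.24 (adjusted p = 0.020), a call that was lost with the replicate number as a block (adjusted p = 0.065) and in 4 of the 6 fits that left out 1 array (adjusted p 0.051 to 0.065). It turned to 0.26 under quantile normalization, and in the deposited table by its own labels it kept its sign, as Irf3 did. Ifnlr1, the specific chain of the type III receptor, was not well above background on any control array. It entered the test only through the S3d arrays, so the filter favoured a higher value. It was at least 2.0-fold higher on the S3d arrays (limma adjusted p = 0.0041). Its log2 fold change of 1.46 was near the median of 1.29 in the dimmest of the 10 groups by signal, where 66.1% of probes were called higher. Il10rb, which type III interferons share with other cytokines, did not pass at 0.14 (adjusted p = 0.11). Under normexp the values of Ifnar1, Ifnlr1 and Ifna4 turned negative.

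Both Janus kinases of the list that had a probe were called lower on their brightest probe, as were 34.4% of all tested probes. Jak1 had a log2 fold change of -1.63 (limma adjusted p = 6.1e-05), but its second probe gave 0.09 (adjusted p = 0.39), so the 2 probes disagree. Jak2 had -0.68 (adjusted p = 0.00037). Jak3, which serves other cytokine receptors and was not on the list, went the other way at 0.84. Among the other transcription factors, Irf9, the DNA-binding partner of STAT2, had -0.80 (adjusted p = 0.00021) and Irf2, an antagonist of IRF1, had -1.15 (adjusted p = 5.8e-05). Irf3, the factor that starts interferon beta transcription, had -0.28 (adjusted p = 0.011) and turned to 0.23 under quantile normalization. Irf5 did not pass at -0.18 (adjusted p = 0.20).

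The feedback inhibitors held some of the lowest values of the list. Socs3 and Socs1, which block the Janus kinases, had log2 fold changes of -2.21 (limma adjusted p = 0.0001) and -2.19 (adjusted p = 3.0e-05). Pias1, an inhibitor of STAT signalling, had -0.85 (adjusted p = 9.2e-05), and Ptpn2, a phosphatase of the pathway, was higher by 0.34 (adjusted p = 0.011), a call lost with each array centred on its median (0.14, adjusted p = 0.21). Usp18, which removes ISG15 from proteins, did not pass at -0.24 (adjusted p = 0.25).

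Of the 7 sensors and adaptors tested, 3 were lower, 2 higher and 2 did not pass, beside 34.4% lower and 39.6% higher among all tested probes. Mavs, the mitochondrial adaptor of the RIG-I-like receptors, had -0.97 (limma adjusted p = 6.1e-05). Dhx58, a receptor of that family, had -0.83 (adjusted p = 0.0071), with -0.01 on its second probe. Tlr7, the receptor for single-stranded RNA, was higher by 1.08 (adjusted p = 0.0015), and Sting1, the adaptor of DNA sensing, by 0.78 (adjusted p = 0.0032). Both turned negative under normexp.

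Most calls among the other type I target genes were lower. Of 24 tested, 14 were lower, 3 higher and 7 did not pass, with a median log2 fold change of -0.70. Of all tested probes, 34.4% were called lower and 39.6% higher. Ifi27 had -2.31 (limma adjusted p = 0.00016). Cmpk2, a mitochondrial nucleotide kinase, had -1.58 (adjusted p = 0.00038), and Oasl2, a relative of Oas1a, had -1.45 (adjusted p = 4.5e-05). Both Ifi27 and Oasl2 lay in the brightest of the 10 groups by signal, where 64.8% of probes were called lower. Dtx3l, a ubiquitin ligase, had -1.48 (adjusted p = 6.3e-05) and -0.37 on its second probe. Ifit2, the third member of the IFIT family measured, did not pass at -0.63 (adjusted p = 0.072) on its brightest probe, while its second probe, dimmer and well above background on 2 of 3 S3d arrays, was called at -2.39 (adjusted p = 0.00064).

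The interferon gamma targets went both ways. Of 14 tested, 7 were lower, 3 higher and 4 did not pass, with a median of -0.24. Among all tested probes, 34.4% were called lower and 39.6% higher. The immunoproteasome subunits Psmb10 and Psmb8 had -0.95 (limma adjusted p = 0.00018) and -0.80 (adjusted p = 0.00069), which shrank to -0.29 and -0.34 under quantile normalization, and Ido1, the enzyme that breaks down tryptophan, had -0.74 (adjusted p = 0.0040). Ciita, the master regulator of MHC class II genes, was higher by 1.82 (adjusted p = 2.1e-05), but was not called under normexp at 0.32 (adjusted p = 0.64). The chemokines Cxcl9 and Cxcl11 did not pass, at -0.08 and 0.17.

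**Figure D4:**
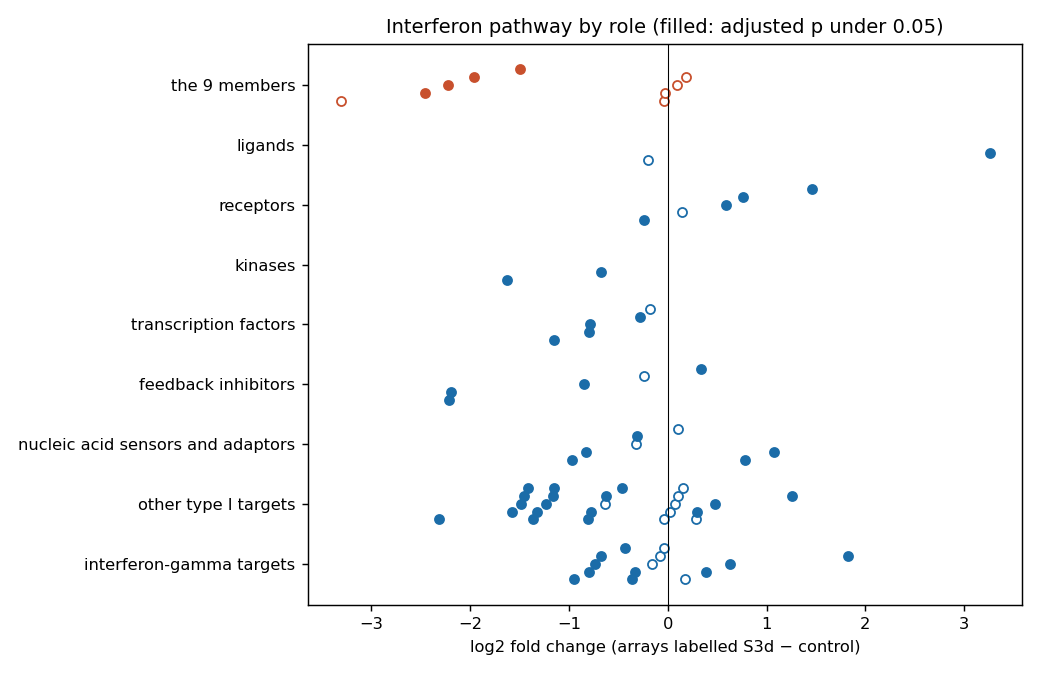
Log2 fold change (arrays labelled S3d minus control) of the 9 interferon-stimulated genes and of 64 other pathway genes by role, 1 point per gene on its brightest probe, filled where the limma adjusted p was under 0.05. Of the 24 other type I targets 14 are filled on the negative side, while 3 of the 5 receptor chains are filled on the positive side. Of all tested probes, 34.4% were called lower and 39.6% higher.

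Markers of the cells that could carry these transcripts also differed. Of 10 leukocyte markers tested, 8 were lower and 2 higher on the arrays labelled S3d, beside 34.4% and 39.6% of all tested probes. The summed level of the 12 measured, relative to the 75th percentile, was 167 to 187 on the control arrays and 92.2 to 103 on the S3d arrays. On this linear scale Cd74 weighs most (mean log2 level 6.42), followed by Laptm5 (4.38) and Cd3g (3.95). These lay among the brightest probes of the array, of which 64.8% were called lower, so the sum does not speak for all 12 markers. Ptprc, which encodes the pan-leukocyte protein CD45, had 3 probes that disagree, with log2 fold changes of -2.64 (limma adjusted p = 1.9e-05) on the brightest, -0.53 (adjusted p = 0.00037) and 0.69 (adjusted p = 0.0091), and Csf1r, a macrophage marker, was higher by 0.87 (adjusted p = 0.00019). Of 7 villus enterocyte markers, 5 were lower and 1 higher, with a summed level of 3070 to 3450 against 1350 to 1380. All 5 lay among the brightest probes of the array, of which 64.8% were called lower. The smooth muscle sum was 126 to 152 against 116 to 138, with 2 of 5 lower and 1 higher, and the endothelial sum was 6.58 to 8.17 against 8.43 to 8.68, with 1 of 4 lower and 1 higher. The part of cell composition in the lower values of Irf7, Isg15, Oas1a and Ifit3 was not tested.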

How the data were processed

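Scanner files of all 6 arrays were deposited by the authors (Agilent Feature Extraction 10.7.3.1 per the file headers), and their processed signal was used, a deposited intensity corrected for background but not scaled between arrays. A second deposited source, 1 table by the authors, holds normalized log2 values. Columns without a sample numbered 0. Control and outlier spots were removed, and a probe with several spots was averaged. Each array was scaled by subtracting the 75th percentile of its log2 processed signal, and groups were compared by lmFit and eBayes of limma 3.58.1 (R 4.3.3), with group as the only term. A probe was tested if every array of 1 or both groups had it well above background, and the Benjamini-Hochberg adjustment ran over all 31422. The fit was tested on simulated data. Where a gene has several probes, the one with the highest signal stands for it. Probes were named by RefSeq accession: of 20904 with one, 17503 had a symbol in the GRCr8 table. The scanner files were made for another build, so gene coordinates were not used.

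The members and lists were chosen with earlier results of these data known. All 9 members are named. From the pathway list, the tested ligands, receptors, kinases and transcription factors are named, and of each other role up to 4 called genes with the largest change. Single genes of these lists that are not reported here still count in the totals. Ifna5, Ifnk, Ifnb1, Usp18, Ifit2, Cxcl9, Cxcl11 and Jak3 were named after their values were seen. The 4-fold background share, the groups by signal and the promoter search were added after values were seen. In all, 4 motifs were searched: besides those reported, a response element with 2 further bases of any kind at its end matched 3 member promoters and 3.9% of all promoters, and the kappa-B site (GGGAC followed by TTTCC) matched 0 member promoters and 0.111% of all promoters. The alternatives tried were normexp background correction (offset 50), quantile normalization, centring on the median, no scaling, other filters, the deposited table, the methods' analysis of variance, a replicate block and each array left out in turn. Precision is limited by the 3 arrays per group.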

Additional observations from a re-analysis of the deposited data

How the results depend on the processing

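The 9 members gave 4 lower calls in the reported setting. The count was 5 under median centring and 4 with quantile normalization, with no filter on dim probes, with only probes well above background on all 6 arrays, with outlier spots kept and with the methods' analysis of variance. It was 2 with no scaling, where 4 were higher, and 1 under normexp. In the deposited table by its own labels it was 0, and 4 were higher. The pathway list, with 34 lower calls, had 1 with no scaling, 4 under normexp and 16 in the deposited table. Of all probes, 23248 were called in the reported setting and 1848 under normexp. With no scaling 29587 of 30169 calls were higher, against 12445 of 23248, and under median centring 9963 of 23215. Leaving out each array gave 4 to 5 members, 31 to 33 list genes and 21382 to 22707 probes. The replicate numbers did not pair the samples (correlations of same-numbered deviations 0.0204, 0.0216 and -0.0491), and with the replicate block 4 members, 34 list genes and 22221 probes were called. The deposited table carries its group labels the other way round from the scanner files, so its directions do not reflect processing alone. Its log2 fold changes were 1.04 for Irf7, 1.70 for Isg15 and 2.84 for Ifit3. Quantile normalization of the scanner files gave -1.04, -1.70 and -2.83 in that order. The cause of the other changes was not tested.

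Signs of single genes turned as follows. In the deposited table by its own labels the log2 fold changes were -1.64 for Ciita, 1.58 for Cmpk2, 0.85 for Dhx58, 1.64 for Dtx3l, 1.23 for Ido1, 1.88 for Ifi27, 3.41 for Ifit1, 2.84 for Ifit3, -2.73 for Ifna4, -0.48 for Ifnar1, 0.89 for Ifng, -0.91 for Ifngr1, -0.76 for Ifnlr1, -0.13 for Il10rb, 1.18 for Irf2, 0.19 for Irf5, 1.04 for Irf7, 0.79 for Irf9, 1.70 for Isg15, 1.59 for Jak1, 0.65 for Jak2, 0.77 for Mavs, 0.23 for Mx2, 1.35 for Oas1a, 1.15 for Oasl2, 0.67 for Pias1, 0.28 for Psmb10, 0.33 for Psmb8, -0.41 for Ptpn2, 2.32 for Socs1, 2.28 for Socs3, -0.04 for Stat2, -0.45 for Sting1 and -0.59 for Tlr7. With no scaling they were 0.26 for Cmpk2, 1.01 for Dhx58, 0.37 for Dtx3l, 1.10 for Ido1, 1.64 for Ifng, 1.6 for Ifngr2, 1.81 for Irf1, 0.69 for Irf2, 1.56 for Irf3, 1.66 for Irf5, 0.36 for Irf7, 1.05 for Irf9, 0.22 for Jak1, 1.16 for Jak2, 0.87 for Mavs, 1.82 for Mx2, 0.40 for Oasl2, 0.99 for Pias1, 0.89 for Psmb10 and 1.05 for Psmb8. Under normexp they were -0.47 for Ifna4, -0.18 for Ifnar1, 0.43 for Ifngr2, -1.72 for Ifnlr1, -0.19 for Il10rb, 0.15 for Irf1, 0.38 for Irf3, -1.01 for Mx1, -0.35 for Stat2, -0.98 for Sting1 and -1.33 for Tlr7. Under quantile normalization they were 0.26 for Ifngr2 and 0.23 for Irf3, and under median centring -0.06 for Il10rb, -0.02 for Mx1 and -0.11 for Stat2. With each array left out in turn, Irf1 ran from -0.07 to 0.02, Mx2 from -0.20 to 0.17 and Stat2 from -0.02 to 0.15, and none of these 3 passed the test in the reported setting. Under median centring Irf1 was called at -0.24 (limma adjusted p = 0.036) and Irf5 at -0.38 (adjusted p = 0.025). The mean over both probes of Dhx58 was -0.42 (adjusted p = 0.068), no longer a call.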

Other observations

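The interferon-stimulated response element was also counted in the promoters of the wider sets, as a description. Among the members with a promoter entry, all 3 with a match were called lower on the arrays labelled S3d, and none of the 3 without one was. Among 25 pathway list genes with a match 15 were lower and 4 higher, and among 28 without a match 13 were lower and 8 higher. Among all other named genes, 36.3% of 284 with a match and 37.6% of 9059 without one were lower. The genes with a match also had a higher median signal, on the log2 scale relative to the 75th percentile. It was 4.82 against -0.92 among the members and 1.67 against 0.19 in the pathway list. Ifit3, a member with a match, was dim by contrast, at -2.26 on the control and -4.72 on the S3d arrays. Brighter probes were more often lower on these arrays.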
